A study of Homo sapiens with 22 samples.

Results

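The response described here is that of Raji, an established human Burkitt lymphoma cell line, to 5-aza-2'-deoxycytidine (5-aza-dC) followed by trichostatin A (TSA). The arrays were chosen by their titles: 2 from treated and 2 from untreated Raji cells, 4 of the 22 arrays of the series, which also covers the Burkitt lines Daudi and Namalwa and the diffuse large B-cell lymphoma lines HT, SU-DHL6 and SU-DHL4. All 19065 probe sets with a single gene symbol were used, and 11963 genes were counted by their brightest probe set. Treated Raji cells received 5-aza-dC for 6 days and 625 nM TSA during the last 24 h. The titles give 5 µM of 5-aza-dC and the treatment protocol gives 3 µM, and this was not resolved. Untreated Raji cells received neither agent, and no group with a single agent was analysed here. All values are log2 expression from robust multi-array averaging (RMA), so a difference of 1 is a 2-fold change. A fall or a rise is treated minus untreated.

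Nothing in the labels says that the duplicates came from separate cultures, so p-values measure only the spread between these arrays, which may be technical. According to the design text, arrays of treated Burkitt cells had been published earlier, so array batch and treatment cannot be told apart in Raji. In the second untreated Raji array the probe sets at the 3' end of ACTB exceeded those at the 5' end by 0.07, against -0.75 in the first untreated, -0.47 in the first treated and -0.57 in the second treated array; for GAPDH the values were 0.64, -0.02, -0.00 and 0.09. Their part in the results was not tested. Results that rest on this array or on the weaker second treated array are given below with and without it. The B-cell identity of the line was checked on 5 measured markers (MS4A1, CD22, CD79A, CD79B and PAX5), which lay between 9.58 and 11.22 in untreated cells, all above the median gene at 7.14. Most defining markers of other cells lay below the median gene in untreated cells. Above it were 0 of 7 myeloid, 1 of 7 epithelial and mesenchymal, 3 of 11 T and NK cell and 1 of 2 erythroid markers. The highest, of the epithelial and mesenchymal set, reached 8.33.

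5-aza-dC is a cytidine analogue that is built into DNA and traps DNA methyltransferases, so that methylation is lost as cells divide, and TSA blocks histone deacetylases. Both marks are tied to silent promoters, above all at germline genes and at endogenous repeats. Transcripts of such repeats can be read by RNA sensors such as RIGI and IFIH1, which signal through interferon regulatory factors to a large set of interferon-stimulated genes. Many of these genes carry an interferon-stimulated response element in the promoter, and cells of the germinal centre lineage, from which Burkitt lymphoma arises, depend on B-cell transcription factors for their surface receptor.

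The promoters below show the sequence features that the leading genes carry. They are RefSeq windows on GRCh38.p14, each running from 250 bases before to 50 bases after the annotated start. In the windows of IFI27 (chr14:94110486-94110785, plus strand) and IFIT1 (chr10:89392373-89392672, plus strand), 2 interferon-stimulated genes among the 12 largest rises, the capitals mark each match, on either strand, to the letters GAAA, any 2 bases and GAAA again. Matches began 108 and 95 bases before the start in IFI27 and 116 and 103 bases before it in IFIT1, and did not overlap.
IFI27: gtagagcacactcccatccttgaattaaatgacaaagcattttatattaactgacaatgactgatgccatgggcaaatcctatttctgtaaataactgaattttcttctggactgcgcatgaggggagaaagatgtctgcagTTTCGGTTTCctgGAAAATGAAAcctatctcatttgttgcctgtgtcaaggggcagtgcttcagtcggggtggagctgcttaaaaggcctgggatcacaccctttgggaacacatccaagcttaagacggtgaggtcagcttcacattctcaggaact
IFIT1: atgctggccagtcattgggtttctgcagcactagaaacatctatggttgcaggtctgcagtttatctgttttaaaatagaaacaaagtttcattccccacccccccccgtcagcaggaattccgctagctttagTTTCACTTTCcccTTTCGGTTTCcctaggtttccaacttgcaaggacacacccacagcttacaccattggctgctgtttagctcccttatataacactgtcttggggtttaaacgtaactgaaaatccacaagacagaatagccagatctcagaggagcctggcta
In the next 3 windows the capitals mark CpG dinucleotides, the substrate of DNA methyltransferases. CCNA1 (chr13:36431705-36432004, plus strand) and TKTL1 (chrX:154295545-154295844, plus strand) are germline genes that rose, and SPARCL1 (chr4:87529327-87529626, minus strand) is the gene whose fall was most particular to Raji. These 3 were chosen after their values were seen, and hold 35, 18 and 2 CpG dinucleotides.
CCNA1: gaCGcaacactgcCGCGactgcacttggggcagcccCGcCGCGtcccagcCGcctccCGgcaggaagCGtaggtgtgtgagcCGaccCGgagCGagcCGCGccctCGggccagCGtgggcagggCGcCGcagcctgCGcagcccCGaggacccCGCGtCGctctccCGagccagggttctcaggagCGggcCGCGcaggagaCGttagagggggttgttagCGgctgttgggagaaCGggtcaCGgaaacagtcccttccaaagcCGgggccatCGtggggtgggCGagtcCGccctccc
TKTL1: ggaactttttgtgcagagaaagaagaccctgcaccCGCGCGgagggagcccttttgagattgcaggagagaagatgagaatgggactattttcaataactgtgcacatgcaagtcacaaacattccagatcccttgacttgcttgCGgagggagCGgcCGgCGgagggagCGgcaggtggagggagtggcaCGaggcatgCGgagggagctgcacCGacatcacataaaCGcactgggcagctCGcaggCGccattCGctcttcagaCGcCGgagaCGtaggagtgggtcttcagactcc
SPARCL1: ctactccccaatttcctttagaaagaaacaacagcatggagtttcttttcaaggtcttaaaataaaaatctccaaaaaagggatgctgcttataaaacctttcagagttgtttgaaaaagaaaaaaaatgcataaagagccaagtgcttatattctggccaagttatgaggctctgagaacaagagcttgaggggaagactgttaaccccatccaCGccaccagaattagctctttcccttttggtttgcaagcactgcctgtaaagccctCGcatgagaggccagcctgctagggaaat
Such a match describes letters and not a site in use, and methylation was not measured here. The motif occurred in 2.97% of the 9562 tested genes that had a RefSeq window and in 3.65% of all 27305 windows. Among genes called higher in treated Raji it occurred in 43 of 505 windows (8.51%), and among the interferon-stimulated genes called higher in 20 of 28 (71.4%), beside 25 of 38 (65.8%) over the whole interferon-stimulated list with a window. The window of CXCL11 holds no match. The median window held 24 CpG dinucleotides over all tested genes, 21 over genes called higher, 27 over genes called lower, 7.5 over interferon-stimulated genes called higher, 18.5 over cancer-testis and germline genes called higher and 11 over histone genes called higher.

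Treated Raji cells gained transcripts of germline genes, interferon-stimulated genes, chemokines and histones and lost transcripts of the B-cell programme. Of 11963 genes, limma called 637 higher (5.32%) and 1159 lower (9.69%), of which 384 (3.21%) and 642 (5.37%) changed by 2-fold or more. After cyclic loess normalization the split was 825 higher and 854 lower, or 49.1% higher against 35.5%. The median gene lay at 0.016. All 1796 called genes had treated arrays beyond both untreated arrays, as did 55.3% of all genes. With the 4 Raji arrays fitted alone, 6 genes were called higher and 0 lower by limma after adjustment, and 889 higher and 1562 lower at an unadjusted p under 0.05.

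**Figure D1:**
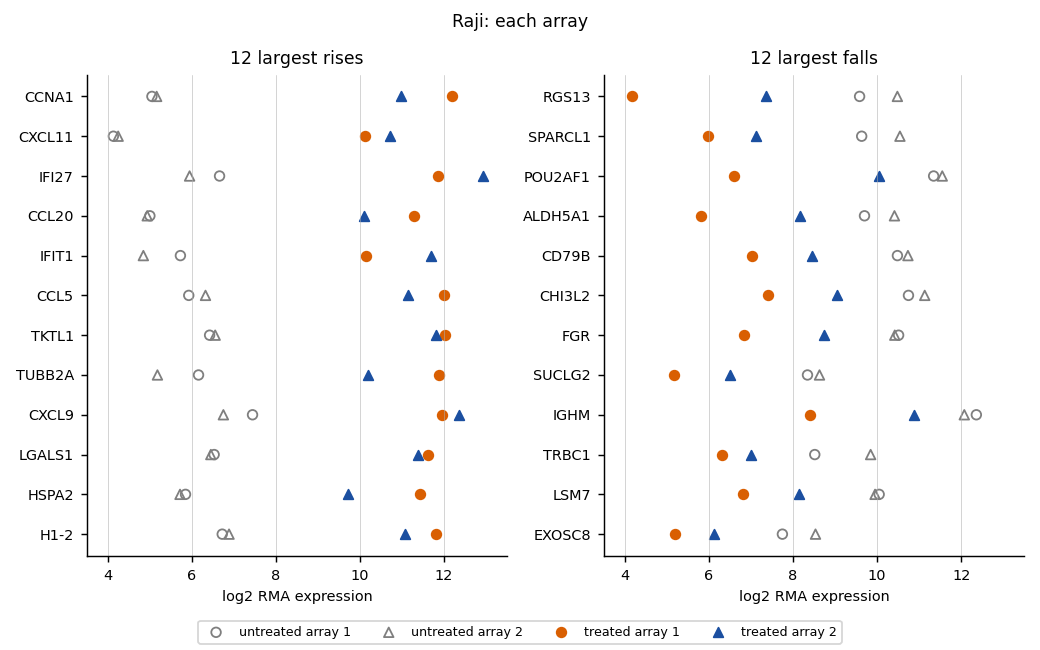
Log2 RMA expression on the 4 Raji arrays for the 12 genes with the largest rise and the 12 with the largest fall (x axis, log2). Open grey symbols are the untreated arrays and filled symbols the treated arrays; each gene's treated arrays lie beyond both untreated arrays, and in the falls the second treated array always lies above the first.

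The largest rise was in CCNA1, a cyclin of germ cells, with values of 5.05 and 5.17 on the untreated arrays and 12.20 and 10.98 on the treated arrays. It went from among the dimmest genes, below the lower quartile of untreated Raji levels at 6.01, to among the bright ones, and the groups lay far apart (difference 6.48 ± 0.45, SE; limma adjusted p = 1.79e-06). CXCL11, a chemokine that attracts T cells through CXCR3, read 4.14 and 4.25 untreated and 10.13 and 10.71 treated (6.23 ± 0.19, limma adjusted p = 2.68e-10). LGALS1, the gene of galectin-1, read 6.53 and 6.45 untreated and 11.61 and 11.39 treated (5.01 ± 0.28). Its treated arrays nearly coincided, unlike those of TUBB2A, a beta tubulin, at 11.88 and 10.19 against 6.16 and 5.18 (5.36 ± 0.59). The other rises among the 12 were IFI27, CCL20, IFIT1, CCL5, TKTL1, CXCL9, HSPA2 and H1-2, by 4.63 to 6.09, and each is described with its group.

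The largest fall was in RGS13, which dampens chemokine receptor signals in germinal centre B cells, from 9.58 and 10.48 to 4.18 and 7.35. Both treated arrays lay below both untreated arrays, but the first was much lower than the second (-4.27 ± 0.72, limma adjusted p = 0.00192). SPARCL1, a secreted matricellular protein, fell from 9.63 and 10.54 to 5.98 and 7.12 (-3.54 ± 0.37, adjusted p = 6.11e-05). Among the other falls were genes of succinate metabolism: ALDH5A1, which makes succinate from its semialdehyde, read 9.70 and 10.41 untreated and 5.82 and 8.18 treated (-3.06 ± 0.60), although none of its other probe sets was called, and SUCLG2, a succinyl-CoA ligase subunit, read 8.34 and 8.63 untreated and 5.17 and 6.51 treated (-2.65 ± 0.37). LSM7, of the LSm complex that binds RNA, and EXOSC8, a subunit of the RNA exosome, fell too (-2.52 and -2.49). FGR, a Src-family kinase, fell from 10.51 and 10.42 to 6.83 and 8.73, and CHI3L2, a chitinase-like protein, from 10.74 and 11.13 to 7.39 and 9.04. TRBC1, a constant segment of the T-cell receptor beta chain, fell by 2.52, a call that was lost without the first treated array (-2.18, adjusted p = 0.11) and without the second untreated array (-1.86, adjusted p = 0.124).

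The interferon-stimulated genes, which make antiviral proteins, had the most rises of any list. Of its 47 measured genes limma called 36 higher (76.6%, against 5.32% of all genes) and 0 lower. The other 11 gave no call, and the median difference was 2.40, against 0.016 over all genes. At an unadjusted p under 0.05 limma gave 42 higher and 0 lower. IFI27, a mitochondrial protein, read 6.66 and 5.95 untreated and 11.86 and 12.93 treated, the highest treated level of the 4 leading members (6.09 ± 0.31, limma adjusted p = 1.03e-07). IFIT1, which binds foreign RNA, read 5.73 and 4.85 untreated and 10.14 and 11.70 treated (5.63 ± 0.37). IRF7, the transcription factor that amplifies interferon production, read 7.54 and 6.58 untreated and 11.35 and 11.50 treated (4.36 ± 0.34). In these genes the treated and untreated arrays did not overlap, and the first untreated array lay above the second. CXCL11 was the exception to that order, with the second untreated array 4.25 and the first 4.14. Without the second untreated array 25 members were called and without the second treated array 28, and with the first treated and first untreated array alone, a choice made after seeing the data, 23 were.

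The second treated array, which responded more weakly across the genome, carried the higher interferon response. Relative to the untreated mean, 671 genes were 2-fold or more higher on the first treated array (5.61%) and 358 on the second (2.99%), and 1156 and 431 were 2-fold or more lower (9.66% and 3.6%). For the interferon-stimulated genes the order was turned: the list median was 1.43 on the first treated array and 3.12 on the second. Of 47 members 45 were higher on the second array, 31 of them by 2-fold or more, whereas 50.6% of all genes were. These differences have 1 array on each side and no test. Taken against the untreated array of the same number, which shares no array between the sides, the medians were 1.26 and 3.48. After quantile normalization they were 1.51 and 3.10, and after cyclic loess 1.66 and 3.17.

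**Figure D2:**
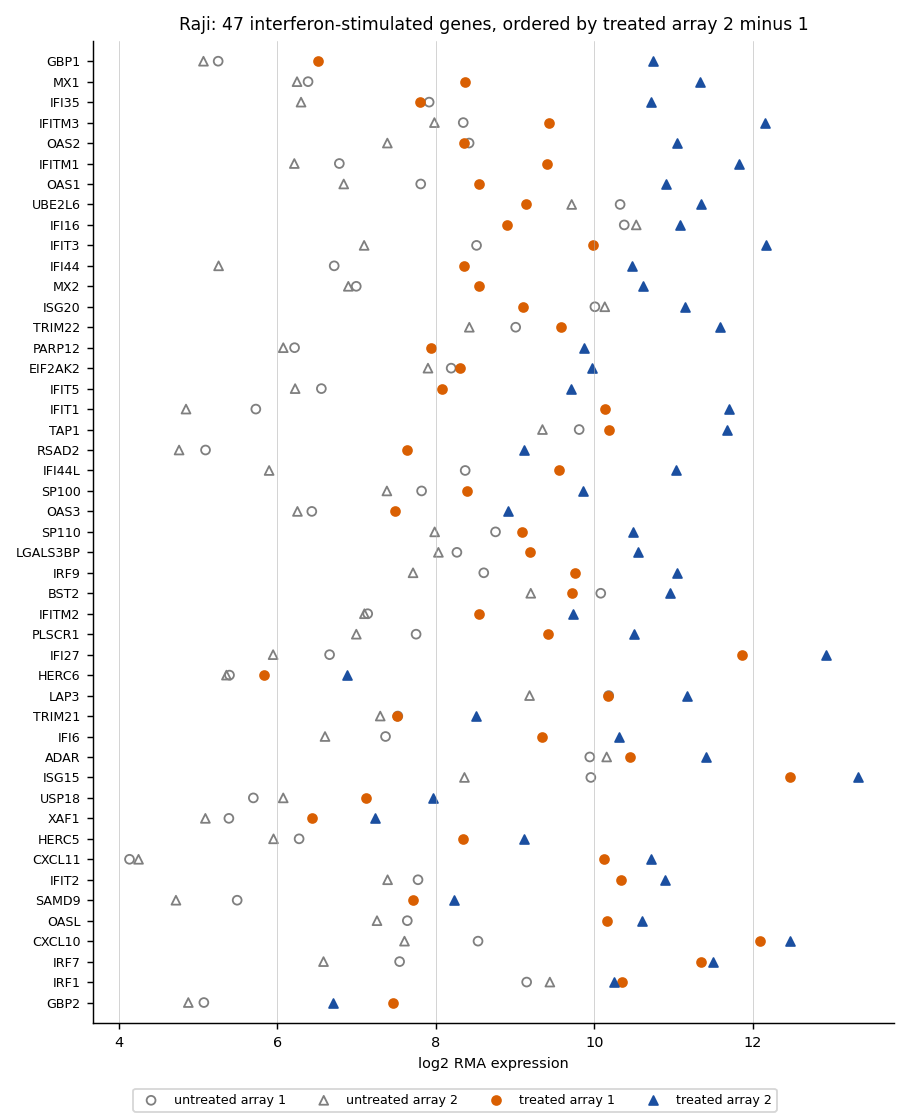
Log2 RMA expression (x axis) of the 47 measured interferon-stimulated genes on the 4 Raji arrays, ordered by the second minus the first treated array. The second treated array (triangles, filled) lies above the first (circles, filled) in 45 genes, and the first untreated array above the second in 41.

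The members differed in how far the treated arrays lay apart; those named here beyond the 4 leading members were chosen after their values were seen. GBP1, an interferon-induced GTPase, read 5.26 and 5.07 untreated, 6.51 on the first treated array and 10.74 on the second, the widest gap of the list. MX1, an antiviral GTPase, read 6.39 and 6.25 untreated and 8.37 and 11.34 treated, and IFITM3, which restricts viral entry, 8.35 and 7.98 untreated and 9.43 and 12.15 treated. IFITM3 lost its call without the second treated or second untreated array (limma adjusted p = 0.0527 and 0.0871). OAS2, an activator of RNase L, read 8.42 and 7.39 untreated and 8.36 and 11.05 treated, so that its first treated array lay within the untreated range. By contrast IRF7, CXCL10 at 12.09 and 12.47, and CXCL11 differed by less than 1 between the treated arrays. GBP2, at 7.47 and 6.71, and IRF1, at 10.35 and 10.24, were the 2 members that were higher on the first. The call of GBP1 (3.47 ± 0.88, adjusted p = 0.0185) was lost without the first untreated array (3.56, adjusted p = 0.0639) and without the second (3.37, adjusted p = 0.0964).

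The untreated arrays also differed in this group. The first untreated array exceeded the second in 41 of 47 members, with a median gap of 0.38 against 0.00 over all genes. ISG15, a ubiquitin-like modifier, read 9.96 on the first untreated array and 8.36 on the second, and IFI44L, an interferon-induced protein, 8.37 and 5.90, both chosen after their values were seen. The call of IFI44L was lost without the second untreated array (1.92, limma adjusted p = 0.0674). In 39 of 47 members both treated arrays lay above both untreated arrays, as they did in 28.1% of all genes. The members with no call included IFI16, a DNA sensor, at 10.38 and 10.53 untreated and 8.89 and 11.08 treated, UBE2L6 and BST2. In IFI16 and UBE2L6 the untreated arrays lay between the treated arrays.

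Upstream of these genes, the list of nucleic acid sensors and interferon production held 25 measured members, of which 4 rose, 1 fell and 20 did not pass. RIGI, the cytosolic sensor of RNA, rose from 5.26 and 5.11 to 9.59 and 9.87 (4.55 ± 0.13, limma adjusted p = 2.68e-10), and the treated arrays nearly coincided. IFIH1, the sensor MDA5, rose from 6.97 and 6.90 to 8.45 and 9.10 (1.84 ± 0.32, adjusted p = 0.00212), a call that none of its other probe sets gave. TYK2, a kinase of the interferon receptor, rose from 9.50 and 8.33 to 10.49 and 10.65 (1.66 ± 0.27). The fourth rise was in DHX58, a relative of RIGI, by 0.97, and the fall was in IFNAR2, a chain of the type I interferon receptor, by 0.87. DHX58 lost its call without the second untreated array (0.69, limma adjusted p = 0.0612), and IFNAR2 without the first treated, second treated or second untreated array (adjusted p = 0.233, 0.055 and 0.308). The interferon genes themselves gave no call: IFNB1 read 5.37 and 5.33 untreated and 5.83 and 5.79 treated, and IFNA1, IFNA2 and IFNA21 differed by -0.02, 0.35 and 0.20. All IFNB1 values lay below the lower quartile of untreated Raji levels at 6.01, with both treated arrays above both untreated arrays. A missing call at so dim a level does not show that IFNB1 stayed unchanged. TLR7, a sensor of single-stranded RNA, read 4.90 and 4.78 untreated, 4.61 on the first and 7.16 on the second treated array, with no call (adjusted p = 0.355).

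Antigen presentation genes gave 3 calls. Of 17 MHC class I genes limma called 2 higher (11.8%, against 5.32% of all genes) and 1 lower (5.88%, against 9.69%). The other 14 were uncalled, and the list median was -0.13 on the first treated array and 0.63 on the second. TAP1, a peptide transporter, read 9.81 and 9.35 untreated and 10.18 and 11.67 treated (1.35 ± 0.41, adjusted p = 0.0429), a call that was lost without the second treated array (0.61, adjusted p = 0.334) and without either untreated array (1.58, adjusted p = 0.0697, and 1.12, adjusted p = 0.244). HLA-E rose by 1.06 ± 0.25 (adjusted p = 0.013), with values of 0.79 and 0.85 and no call without the second treated or the second untreated array (adjusted p = 0.0845 and 0.123). PSMB10, a subunit of the immunoproteasome, read 9.85 and 9.20 untreated and 6.81 and 8.55 treated (-1.84 ± 0.44), and lost its call without the first treated array (-0.98, adjusted p = 0.17) and without the first untreated array (-1.52, adjusted p = 0.1). Of 13 MHC class II genes 0 were called by limma, and at an unadjusted p under 0.05 there were 1 higher and 1 lower. The change of HLA-DQB1, a class II beta chain, lay 2.06 below that in Namalwa (-2.06 ± 0.46, limma adjusted p = 0.0482). CD74, the invariant chain, stayed bright at 12.96 and 12.76 untreated and 13.42 and 13.16 treated.

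Chemokines rose in both treated arrays. Of 28 chemokine and receptor genes 9 rose (32.1%, against 5.32% of all genes), 0 fell (against 9.69%) and 19 did not pass. CCL20, which attracts cells that bear CCR6, rose from 5.00 and 4.94 to 11.29 and 10.09 (5.72 ± 0.47, limma adjusted p = 8.86e-06). CCL5, an inflammatory chemokine, rose from 5.93 and 6.33 to 11.99 and 11.15 (5.44 ± 0.37). CXCL9, a CXCR3 ligand like CXCL10 and CXCL11, rose from 7.45 and 6.75 to 11.94 and 12.34 (5.04 ± 0.22). The CXCR3 ligands were thus higher on the second treated array, and CCL20 and CCL5 higher on the first. CXCL10, CCL19, CXCL8, CCR7 and CCL4 made up the rest of the 9, at 1.22 to 4.21. CCL4 lost its call without the second treated array (0.40, limma adjusted p = 0.369) and without the first or second untreated array (adjusted p = 0.213 and 0.0944).

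NF-kB targets and genes typical of Hodgkin Reed-Sternberg cells, the tumour cells of a B-cell lymphoma that has lost most B-cell markers, also rose. Of 27 NF-kB targets limma called 16 higher (59.3%, against 5.32% of all genes) and 1 lower (3.7%, against 9.69%). The other 10 were uncalled, with list medians of 1.05 and 1.19 on the first and second treated array. TNFAIP2, a cytokine-induced gene, rose from 7.37 and 7.35 to 11.15 and 10.71 (3.57 ± 0.17, limma adjusted p = 5.87e-08) and IER3, an early response gene, from 6.71 and 6.30 to 10.55 and 9.42 (3.48 ± 0.41). The exception was LTB, which encodes lymphotoxin beta and fell from 10.60 and 10.74 to 8.39 and 8.35 (-2.30 ± 0.28). Of 37 Reed-Sternberg genes 17 rose (45.9%), 0 fell and 20 did not pass. After CCL5 and LGALS1 the leading members were ANXA2, a phospholipid-binding protein, at 7.63 and 7.72 untreated and 11.25 and 11.07 treated (3.49 ± 0.28), and FSCN1, which bundles actin and marks Reed-Sternberg cells, at 6.59 and 6.36 untreated and 10.44 and 9.18 treated (3.34 ± 0.44). IRF4, which drives plasma cell differentiation, rose from 7.29 and 7.07 to 10.00 and 9.56 (2.60 ± 0.22, adjusted p = 1.03e-05).

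Germline genes rose from near the dimmest levels. Of 29 cancer-testis and germline genes limma called 17 higher (58.6%, against 5.32% of all genes) and 0 lower, with 12 uncalled and a median of 0.65. At an unadjusted p under 0.05 limma gave 20 and 0. TKTL1, a transketolase-like protein, rose from 6.42 and 6.56 to 12.02 and 11.81 (5.42 ± 0.56, limma adjusted p = 5.97e-05). HSPA2, a heat shock protein of spermatogenesis, rose from 5.85 and 5.72 to 11.42 and 9.71 (4.78 ± 0.45). MAGEA6, a cancer-testis antigen of the X chromosome, rose from 4.52 and 4.38 to 8.46 and 7.65 (3.61 ± 0.32). The second treated array lay above the first in 9 of the 29. The summed linear level of the list was 1535 and 1509 on the untreated arrays and 15111 and 9299 on the treated arrays.

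Histone genes, metallothioneins and genes known to respond to histone deacetylase inhibitors were higher on the first treated array. Of 26 histone genes limma called 13 higher and 1 lower, with 12 uncalled and list medians of 1.09 and 0.40 on the first and second treated array. The second treated array lay above the first in 2 of 26. H1-2, a linker histone, rose from 6.72 and 6.89 to 11.80 and 11.08 (4.63 ± 0.36, limma adjusted p = 6.32e-06), and H2BC5 from 7.83 and 7.73 to 12.04 and 11.25 (3.86 ± 0.36). Replication-dependent histone genes such as these are near copies of each other, so probe sets can share signal. Of 10 metallothionein genes 6 rose (60.0%) and 4 did not pass, with medians of 1.63 and 0.55. MT2A, which binds zinc, rose from 10.98 and 10.77 to 12.77 and 12.16 (1.59 ± 0.28). Of 19 inhibitor-responsive genes 8 rose (42.1%) and 11 did not pass, with medians of 1.44 and 0.63. DHRS2, a dehydrogenase, read 8.03 and 7.61 untreated and 12.21 and 9.82 treated (3.19 ± 0.57), and TXNIP, which binds thioredoxin, 8.97 and 9.01 untreated and 12.02 and 11.97 treated (3.01 ± 0.47). Of 23 immediate early genes 6 rose (26.1%), none of which was FOS, and 2 of 23 were higher on the second array.

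**Figure D3:**
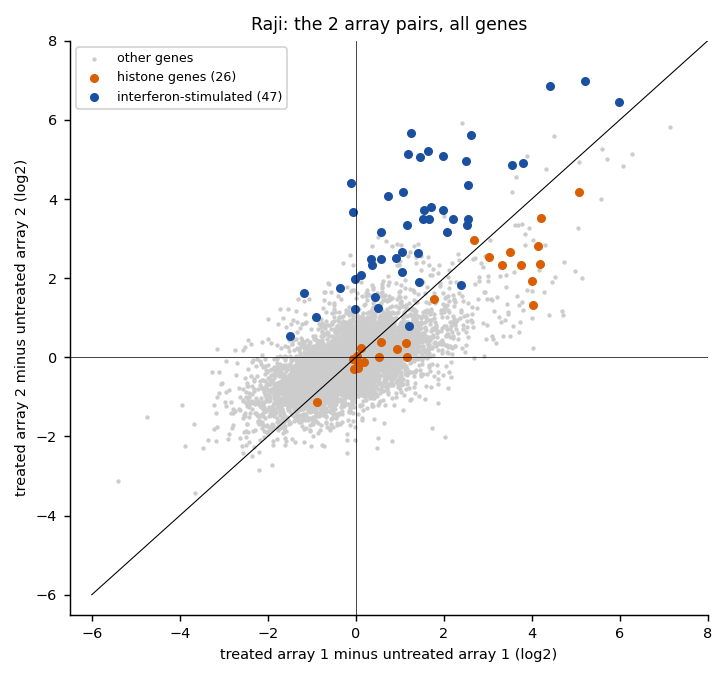
Treated minus untreated log2 difference of each gene for the arrays numbered 1 (x axis) and the arrays numbered 2 (y axis), which share no array; grey points are the other genes and the line marks equal differences. Of the 47 interferon-stimulated genes (blue) 45 lie above the line, and of the 26 histone genes (orange) 23 lie below it.

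The B-cell programme was lower, more so on the first treated array. Of 27 B-cell identity genes limma called 2 higher (7.41%, against 5.32% of all genes) and 13 lower (48.1%, against 9.69%). The other 12 were uncalled, with list medians of -1.23 on the first and -0.58 on the second treated array. CD79B and CD79A, the signalling chains of the B-cell receptor, fell from 10.48 and 10.73 to 7.02 and 8.45 (-2.87 ± 0.47, limma adjusted p = 0.00151) and from 10.61 and 10.89 to 8.11 and 8.67 (-2.36 ± 0.30). POU2AF1, a coactivator of B-cell transcription, read 11.34 and 11.55 untreated, 6.59 on the first treated array and 10.03 on the second (-3.13 ± 0.86, adjusted p = 0.0282). Without the first treated array it stood at -1.41 (adjusted p = 0.356), and without the first or second untreated array at -3.24 and -3.03 (adjusted p = 0.0862 and 0.13). After quantile normalization or cyclic loess it also lost its call. BLNK, the adaptor below the receptor, fell by 2.46, and PAX5, the factor that maintains B-cell identity, by 1.55; both lost their call without the first treated array (-1.70, adjusted p = 0.0639, and -1.06, adjusted p = 0.0622). The 1 other probe set of PAX5 had the opposite sign and no call. MS4A1, which encodes CD20, went the other way on each array, at 11.53 and 10.91 untreated, 9.99 on the first and 12.14 on the second treated array, so the untreated values lay between (adjusted p = 0.938). CD24, a surface glycoprotein, and CD40, a receptor for T-cell help, were the 2 that rose, CD24 from 5.86 and 6.48 to 10.39 and 8.51 (3.28 ± 0.47) and CD40 by 1.43. In bulk RNA, fewer cells of a kind and less RNA per cell cannot be told apart.

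Germinal centre genes followed, with 0 of 18 higher, 7 lower (38.9%, against 9.69% of all genes) and 11 not passing. After RGS13 came CD27, a costimulatory receptor, from 10.04 and 10.59 to 7.40 and 8.54 (-2.34 ± 0.39), and TCL1A, a coactivator of AKT, from 9.99 and 10.26 to 7.88 and 8.54 (-1.91 ± 0.29). IRAG2, an endoplasmic reticulum protein, fell by 2.13, and lost its call without the first treated array (-1.40, adjusted p = 0.292), without the second untreated array (-1.45, adjusted p = 0.24), after quantile normalization and after cyclic loess. Of 20 plasma cell and secretory genes 3 rose, 5 fell and 12 did not pass. IGHM, the heavy chain of IgM, read 12.36 and 12.07 untreated, 8.41 on the first treated array and 10.88 on the second (-2.57 ± 0.59). Its call was lost without the first treated array (-1.34, adjusted p = 0.121) and without the first untreated array (-2.43, adjusted p = 0.0618). Of the 4 other probe sets of IGHM 1 was called lower too and 2 had the opposite sign. JCHAIN, which joins polymeric antibodies, fell from 10.67 and 10.27 to 8.17 and 8.26 (-2.25 ± 0.22, limma adjusted p = 3.58e-05), with level treated arrays.

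Genes of proliferation fell in part. In the list of MYC and ribosome biogenesis 13 of 27 members fell (48.1%, against 9.69% of all genes), 0 rose and 14 gave no call. MYC itself, which is translocated in Burkitt lymphoma, read 10.92 and 10.53 untreated and 7.94 and 9.41 treated (-2.05 ± 0.42, limma adjusted p = 0.00567), and lost its call without the first treated array (-1.32, adjusted p = 0.075). CDK4, a kinase of the G1 phase, fell from 10.72 and 10.49 to 8.31 and 9.34 (-1.78 ± 0.23). Of 35 genes of DNA replication and S phase 1 rose (2.86%, against 5.32% of all genes), 15 fell (42.9%, against 9.69%) and 19 did not pass. The falls were led by TYMS, thymidylate synthase, at -1.71 ± 0.41, and RRM1, the large subunit of ribonucleotide reductase, at -1.57 ± 0.35. Both lost their calls without the first treated array (-0.83, adjusted p = 0.134, and -1.06, adjusted p = 0.126) and without the second untreated array (-1.54, adjusted p = 0.0996, and -1.14, adjusted p = 0.105), and in neither did another probe set give the call. TK1, thymidine kinase, was the 1 that rose, and lost its call without the first treated, second treated or first untreated array (limma adjusted p = 0.16, 0.0715 and 0.281).

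Mitosis genes gave few calls in Raji. Of the 37 genes 1 was called higher (2.7%, against 5.32% of all genes) and 3 lower (8.11%, against 9.69%). No call was given for 33, and the median was -0.07. By array the list median was -0.39 on the first treated array and 0.06 on the second. Against the untreated array of the same number it was 0.15 and -0.48, so its sign depended on the untreated array used. The rise was in CDC20, an activator of the anaphase-promoting complex, from 8.67 and 9.66 to 10.60 and 10.00, by 1.13 (limma adjusted p = 0.0355). CDC20 lost its call without the first treated array (0.84, adjusted p = 0.316) and without the first untreated array (0.64, adjusted p = 0.295). TRIP13, a checkpoint ATPase, fell from 8.84 and 9.17 to 7.66 and 7.98 (-1.18 ± 0.21, limma adjusted p = 0.00227). The other falls were CCNA2, by 1.31, and MAD2L1, by 1.29. CCNA2 lost its call without the first treated and without the second untreated array (-1.01, adjusted p = 0.249, and -0.68, adjusted p = 0.293). MAD2L1 lost its call also without the second treated array (-1.24, adjusted p = 0.145 without the first treated, -1.33, adjusted p = 0.0536 without the second treated and -0.94, adjusted p = 0.219 without the second untreated array). The second untreated array lay above the first in 36 of 37 members, with list medians of 9.40 and 8.68, and it is the array with the higher 3' to 5' values; the part of these in the list's difference was not tested.

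Genes for the targets and the handling of the drugs were described as a group of their own. Of 36 enzymes and readers of DNA methylation and histone deacetylation 0 rose, 7 fell (19.4%, against 9.69% of all genes) and 29 did not pass. DNMT1, the maintenance methyltransferase that 5-aza-dC traps, read 9.60 and 10.41 untreated and 8.61 and 9.22 treated (-1.09 ± 0.28, limma adjusted p = 0.0202). It lost its call without the first treated array (-0.78, adjusted p = 0.232), without the second untreated array (-0.68, adjusted p = 0.22), and after quantile normalization and cyclic loess. DNMT3A and DNMT3B, the de novo methyltransferases, differed by -0.03 and 0.29 with no call. HDAC1 fell by 0.96 (adjusted p = 0.0274), a call lost when any of the 4 arrays was left out (-1.13 to -0.79, adjusted p = 0.0648 to 0.149), and HDAC2 and HDAC3 differed by -0.28 and 0.21 with no call. MTA1, a subunit of the NuRD deacetylase complex, fell from 9.16 and 9.83 to 6.81 and 7.33 (-2.42 ± 0.39, adjusted p = 0.00131). Of 19 genes of nucleoside uptake and decitabine metabolism 1 rose (5.26%, against 5.32% of all genes), 8 fell (42.1%, against 9.69%) and 10 did not pass. Among the falls were CMPK1, which phosphorylates dCMP analogues, from 10.21 and 10.01 to 7.77 and 8.74 (-1.85 ± 0.25), and DCTD, which deaminates dCMP, by 1.70.

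Lists of stress and cell death are read beside the 5.32% of all genes called higher and 9.69% called lower. Of 25 p53 targets and CDK inhibitors 2 rose (8.0%), 1 fell (4.0%) and 22 did not pass. The rises were in GADD45B (1.39 ± 0.18, limma adjusted p = 0.000299) and CDKN1C (2.27 ± 0.70, limma adjusted p = 0.0458). CDKN1C lost its call without the first treated, first untreated or second untreated array (1.15, 2.23 and 2.32). None of its 4 other probe sets gave the call. CDKN1A, the inhibitor p21, read 8.95 and 8.97 untreated and 10.34 and 10.37 treated, 1.39 ± 0.57 with no call in a fit that shares its spread over the lines (adjusted p = 0.137), although the Raji arrays did not overlap. BAX, an activator of apoptosis, fell from 7.88 and 7.82 to 5.89 and 6.83 (-1.49 ± 0.28, limma adjusted p = 0.00333). Of 28 apoptosis regulators 3 rose (10.7%), 2 fell (7.14%) and 23 did not pass. TNFSF10, the death ligand TRAIL and itself interferon-induced, rose from 5.44 and 4.82 to 7.85 on the first and 10.75 on the second treated array (4.17 ± 0.68), and BCL2A1, a survival protein, from 8.73 and 7.79 to 10.62 and 10.11 (2.11 ± 0.29). Of 24 genes of the unfolded protein and amino-acid stress response 0 rose, 4 fell (16.7%) and 20 did not pass, led by PHGDH, of serine synthesis, from 9.42 and 10.48 to 8.23 and 8.33 (-1.67 ± 0.28).

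Of the lists of other lineages, limma called 3 of 23 T and NK cell genes higher (13%), 3 of 20 myeloid genes (15%), 4 of 24 epithelial and mesenchymal genes (16.7%) and 9 of 30 neuronal genes (30.0%), beside 5.32% of all genes, and 0 of these lower. Of 10 erythroid genes 0 were called either way, and 0 had an unadjusted limma p under 0.05. The summed linear levels of the 11 defining T and NK cell markers were 1168 and 1270 in untreated and 1362 and 1336 in treated cells. The 7 measured myeloid markers summed to 382 and 399 untreated and 618 and 521 treated, so that both treated arrays were higher. Of these 7 limma called 1 higher, CSF1R, and 0 lower, and their median level was 5.47 untreated and 5.26 treated. The 7 epithelial and mesenchymal markers summed to 740 and 669 untreated and 838 and 709 treated, and the 2 measured erythroid markers to 274 and 223 untreated and 218 and 269 treated, so that these overlapped. The part of other cells in the results was not tested. Of the myeloid list CSF1R, the receptor of a macrophage growth factor, rose from 6.20 and 6.50 to 8.21 and 7.71 (1.61 ± 0.19, limma adjusted p = 0.000159), and is also expressed in Reed-Sternberg cells. CST3, a protease inhibitor of the same list, rose by 2.02. Among neuronal genes NPTX2, a pentraxin, read 5.64 and 5.94 untreated and 10.33 on the first and 7.11 on the second treated array. Its call (2.93 ± 0.85, adjusted p = 0.0356) was lost without the first treated array (1.32, adjusted p = 0.443) and without the first or second untreated array (2.78, adjusted p = 0.135, and 3.08, adjusted p = 0.117).

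**Figure D4:**
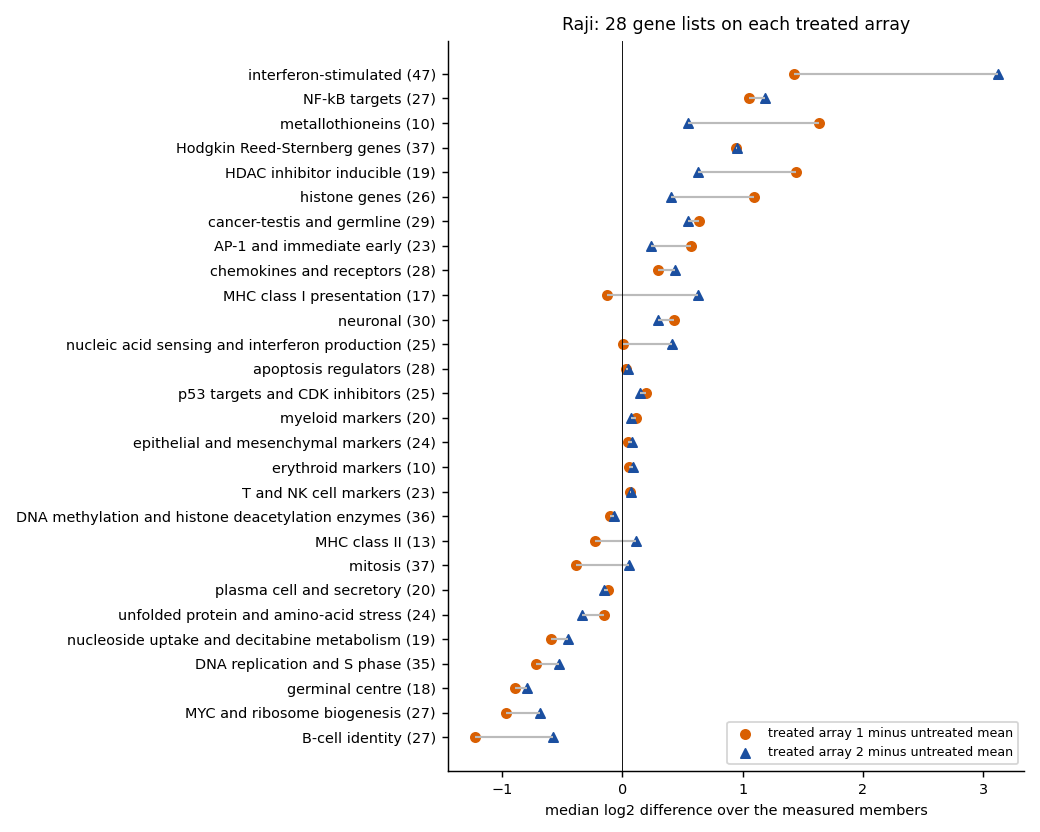
Median log2 difference of each of the 28 gene lists (number of measured members in brackets) on the first treated Raji array (circles) and the second (triangles), both against the mean of the untreated arrays. The median lies closer to 0 on the second array in 16 of the 28 lists, while the interferon-stimulated list goes from 1.43 to 3.12.

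Across the called genes the second array was the weaker. Of 637 genes called higher, 176 (27.6%) were higher still on the second treated array, and of 1159 called lower, 149 (12.9%) were lower still on it. The treated arrays differed by 2-fold or more in 721 genes and the untreated arrays in 248. Besides GBP1 and POU2AF1, the genes with untreated arrays within 0.5 of each other that were higher on the second treated array were IGLC1, a lambda light chain, at 7.59 and 10.81, CYTIP, of leukocyte adhesion, at 5.82 and 9.07, and PLAC8, at 7.72 and 10.69. On the first treated array the largest excess lay in PCDH8, a protocadherin, at 7.92 and 4.22 against 3.90 and 3.99 untreated. DDX43, a cancer-testis helicase, at 9.63 and 6.20, NPTX2, PTX3, a pentraxin of innate immunity, at 7.86 and 4.70, and CRISPLD2, a secreted glycoprotein, at 9.63 and 6.75, followed. For PCDH8, PTX3 and CRISPLD2 the second treated array thus lay within 1 of the untreated arrays. Without the first treated array 329 genes were called higher and 368 lower, and without the second 852 and 1404. Without the first untreated array the counts were 422 and 872, and without the second 329 and 578.

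To ask what was particular to Raji, its difference was compared with the mean difference of the other 5 lines, in the same fit. Of 11963 genes 299 passed (2.5%), 192 with Raji higher (1.6%) and 107 with Raji lower (0.894%). In 154 of the former and 103 of the latter the Raji difference lay outside the range of the 5 lines, as it did in 29.3% of all genes. Of the 154, 66 rose in Raji and 6 fell, while 82 gave no call in Raji, and in 71 of these every other line was below 0. Of the 103, 54 fell in Raji and 49 gave no call. Against Daudi and Namalwa only, the other Burkitt lines, 52 genes were higher and 103 lower, and against SU-DHL4, SU-DHL6 and HT only, 371 and 215. Without SU-DHL4 the counts were 88 and 68, without Namalwa 289 and 153, and without the second untreated Raji array 108 and 37. Arrays of other lines moved the counts too, to 124 and 62 without the first untreated Daudi array, 124 and 58 without the first and 126 and 56 without the second untreated Namalwa array, and 323 and 169 without the first treated SU-DHL6 array. Genes lower in Raji numbered 71 without the second treated Daudi array and 64 without the second untreated SU-DHL4 array.

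The 10 genes named here were chosen as those furthest above the mean of the other 5 lines with a change outside the range of those lines, and this contrast is the one that chose them. IFI27 exceeded that mean by 4.25 (limma adjusted p = 3.3e-05) but is not among them, since it rose by 6.96 in Namalwa. CXCL11 rose by 6.23 in Raji, 3.66 in Namalwa, 2.24 in Daudi and 0.13 to 0.82 in SU-DHL4, SU-DHL6 and HT. Raji exceeded their mean by 4.81 ± 0.21 (limma adjusted p = 3.34e-08), and Namalwa by 2.57 ± 0.26 (adjusted p = 0.000949). RIGI rose by 4.55 in Raji and 2.81 in Namalwa, and lay between -0.16 and 0.29 in the others (3.94 ± 0.15 above their mean, adjusted p = 9.96e-09). IFIT1 rose by 5.63 in Raji and 4.89 in Namalwa, and stood at -1.43 in Daudi (4.45 ± 0.41, adjusted p = 0.000119), and the difference from Namalwa was 0.74 ± 0.52 with no call (adjusted p = 0.786). CCNA1, a germline cyclin, stood at 6.48 in Raji, 5.86 in Namalwa and 0.10 to 2.89 in the others (4.40 ± 0.50, adjusted p = 0.00049). CCL20, CCL5, CXCL9, TUBB2A, CD9 and TRIM22 exceeded the mean of the other lines by 3.43 to 3.98. TRIM22, an antiviral ubiquitin ligase, stood at 1.87 in Raji and at 1.44 in Namalwa and lay between -3.02 and -2.46 in the other lines. Without the second untreated array TRIM22, TUBB2A and CD9 lost this call (adjusted p = 0.0519, 0.0554 and 0.0678). In 4 of the 10 genes untreated Raji lay below each of the other untreated lines, as in 65 of the 154 (42.2%) and in 13.8% of all genes. CD9 was one, with an untreated mean of 5.52 in Raji, 9.45 in Namalwa and 11.02 in HT. Its treated mean was 9.68 in Raji, 11.24 in Namalwa and 10.64 in HT. The untreated level enters the difference tested, so these shares are a description.

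**Figure D5:**
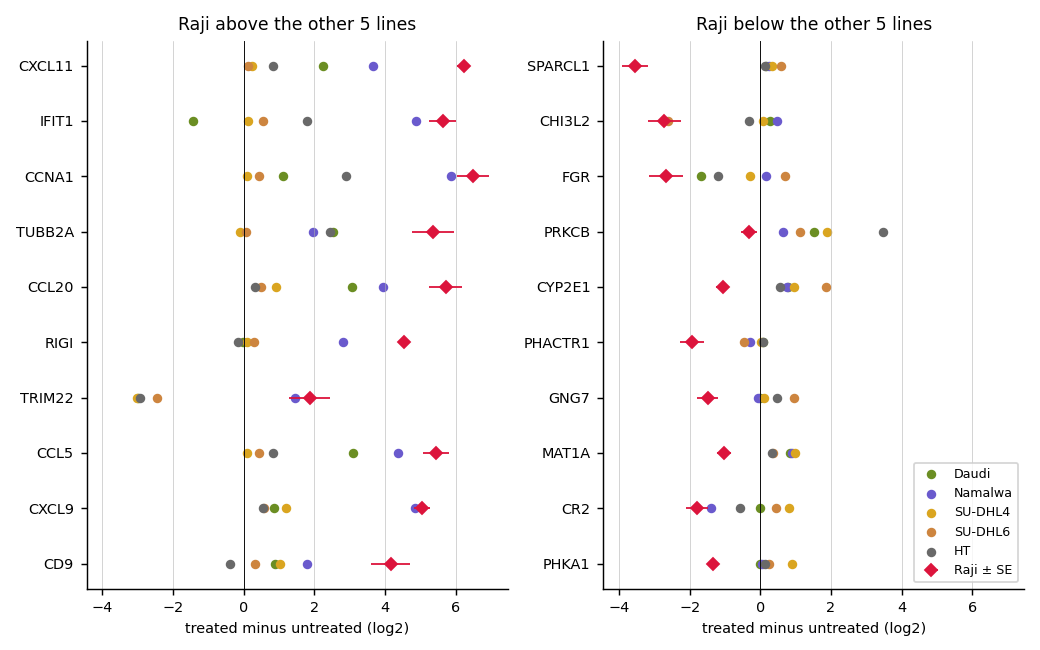
Treated minus untreated log2 difference (x axis) in Raji (diamonds, bars are the SE of the fit) and the other 5 lines (dots) for the 10 genes per direction that were furthest from the mean of the other lines and outside their range. Namalwa is the line nearest to Raji for every gene of the left panel but TUBB2A; in the right panel every line but Raji is near or above 0 for SPARCL1, CYP2E1, MAT1A and PHKA1.

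Within the interferon list, 22 of 47 members rose more in Raji than in the mean of the other lines and 0 less. Over all genes 1.6% were higher and 0.894% lower in this contrast. The list median was 2.40 in Raji, 1.84 in Namalwa, -0.64 in Daudi and 0.17 to 0.32 in SU-DHL4, SU-DHL6 and HT. The untreated list median level was 7.33 in Raji, 8.82 in Daudi and 6.43 to 7.44 in the other lines, so that the list began higher in Daudi. In Daudi IFI27 stood at -0.99 and read 12.01 treated, where the untreated Raji mean was 6.30. IFIT1 read 9.55 untreated and 8.11 treated in Daudi, where the untreated Raji mean was 5.29. Against Namalwa 1 member was higher in Raji, CXCL11, and 1 lower, IRF1, and against Daudi 23 were higher. Over all genes 0.485% were higher and 0.92% lower against Namalwa, and 0.736% higher against Daudi. The count of 22 moved to 42 without the first treated array, to 10 without the second untreated array, and to 7 against Daudi and Namalwa only. With the first treated and first untreated array alone it was 9. Of the chemokine list 7 of 28 exceeded the other lines, and CCL19, which guides cells through CCR7, did so also against Namalwa and Daudi singly, at 2.46 in Raji and 0.01 to 1.44 elsewhere (1.93 ± 0.15 above the mean, limma adjusted p = 2.63e-05).

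The genes in which Raji lay below the other lines were often genes with a higher level in untreated Raji than in any other untreated line. SPARCL1 stood at 10.09 in untreated Raji and at 5.21 to 5.45 in the other untreated lines, and changed by -3.54 in Raji and by 0.13 to 0.59 in the others (-3.83 ± 0.41 from their mean, limma adjusted p = 0.000296). PHKA1, a subunit of phosphorylase kinase, read 7.40 and 7.57 untreated and 6.07 and 6.20 treated in Raji and changed by -0.02 to 0.90 elsewhere (-1.61 ± 0.16, adjusted p = 0.000211). CYP2E1, a cytochrome P450, read 8.66 and 9.01 untreated and 7.69 and 7.84 treated, and rose by 0.56 to 1.87 elsewhere, and MAT1A, which makes S-adenosylmethionine, the methyl donor of DNA methylation, read 9.46 and 9.79 untreated and 8.46 and 8.71 treated against 0.34 to 0.98 elsewhere. In all 10 genes named in this direction untreated Raji lay above each of the other untreated lines, as in 68 of the 103 (66.0%) and in 16.6% of all genes. The untreated level enters the difference tested, so these shares are a description. PRKCB, protein kinase C beta, gave no call in Raji, at -0.33 ± 0.22, and stood at 0.64 to 3.48 in the other lines. The other 5 were CHI3L2, FGR, PHACTR1, GNG7 and CR2, the complement receptor that Epstein-Barr virus binds, at -2.30 to -1.64 from the mean. All 5 lost their call when some Raji arrays were left out, CHI3L2 at -2.49 to -1.48, FGR at -2.26 to -1.27 and CR2 at -1.54 and -1.41 (limma adjusted p = 0.0661 to 0.175, 0.125 to 0.159 and 0.0744 to 0.163). PHACTR1 did so without the first treated and second untreated array (-1.19 and -1.48), and GNG7 without the second treated and second untreated array (-1.58 and -1.26).

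Some genes whose changes in Daudi and Namalwa were below 0 gave no call in Raji. Among the 82 genes set above the range of the other lines without a call in Raji, every other line was below 0 in 71. RRM2, the small subunit of ribonucleotide reductase, read 11.09 and 10.44 untreated and 11.85 and 11.30 treated in Raji, with no call (0.81 ± 0.33, limma adjusted p = 0.13), and lay between -4.66 and -0.64 in the other lines (3.42 ± 0.36 above their mean, adjusted p = 0.000296). ID3, which binds and blocks E2A, had an untreated mean of 8.97 and read 9.39 and 9.14 treated, while it stood at -3.23 in Daudi and -2.60 in Namalwa. In the mitosis list 12 of 37 genes and in the S phase list 7 of 35 were higher in Raji than in the mean of the other lines. Over all genes 1.6% were. In either list 0 were lower, and the mitosis median was -0.07 in Raji and -2.78 to -0.52 elsewhere. The mitosis count was 25 without the second untreated Raji array, 8 without the second treated array, 3 without SU-DHL4, 24 without HT and 1 against Daudi and Namalwa only. RRM2 and ID3 were chosen after their values were seen, among the 25 genes that differed from the other 5 lines, from Namalwa and from Daudi, of which 8 were higher and 17 lower in Raji. Against Namalwa alone 58 genes were higher in Raji (0.485%) and 110 lower (0.92%), 1.4% in all, and against Daudi alone 88 (0.736%) and 141 (1.18%), 1.91% in all.

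Most of the Raji response was shared with the other lines in direction. In 72.2% of the 1796 called genes all 5 other lines shared the sign of Raji, against 41.8% of all genes, and single lines shared the sign of 87.8% (HT) to 93.4% (Namalwa). No array is shared between the lines. LGALS1 was such a gene, at 5.01 in Raji, 5.00 in Daudi, 5.01 in Namalwa and 2.92 to 3.07 in SU-DHL6, SU-DHL4 and HT, and the difference of Raji from the mean of the other lines gave no call (1.21 ± 0.32, limma adjusted p = 0.0658). TXNIP, at 3.01 in Raji and 2.58 to 3.51 elsewhere, and CD79B, at -2.87 in Raji and -3.63 to -2.73 elsewhere, lay within the range of the other lines.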

How the data were processed

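RNA of Raji cells, 2 untreated and 2 treated samples, was hybridised to Affymetrix human genome arrays together with 18 arrays of 5 other lines. The authors deposited log2 expression values made by robust multi-array averaging (RMA), per the labels and the series design text; the submitters' processing notes name RMA and R 2.10.1. Arrays carry no read depth, so their number limits the precision. Of 22283 probe sets, 68 controls were left out, and 19065 of the other 22215 had 1 gene symbol, 1043 several and 2107 none. Only the first kind was named, and 19053 of them matched RefSeq by Entrez identifier.

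Differences were fitted here with limma 3.58.1 in R 4.3.3 on 12 group means of all 22 arrays (two-sided, Benjamini-Hochberg over 19065 probe sets, threshold 0.05), so the spread between duplicates was shared over the 5 lines that have them. HT, with 1 array per treatment, was assumed to vary like the others. A gene stands for its probe set with the highest mean over the 22 arrays, and 4310 of 11963 genes had several. The members, the 28 gene lists and the tests were chosen with earlier results of these data known. Named genes were the 12 largest rises and falls whose groups did not overlap, up to 4 members per list, 10 per direction set apart from the other lines, 5 per direction that differed between the treated arrays, and 17 chosen singly, of which 15 were measured. On simulated data the fit recovered 60 of 100 genes changed by 1 and 99 of 100 changed by 2 in Raji, and 46 and 99 for the difference from the other lines. For the difference from Namalwa it recovered 24 and 90, and for that from Daudi 35 and 91, so a missing call there says little about changes near 1. Each probe set had the same spread on every simulated array. Alternatives were other normalizations, filters, probe sets, variance models, left-out arrays and lines, and a replicate block. Promoters are RefSeq windows of 300 bases on GRCh38.p14. No set test was run.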

Additional observations from a re-analysis of the deposited data

Results flagged for a closer look

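These results stand here because the Raji difference was set against that of other lines and the difference itself passed limma's test, or because they lie in probe sets outside the comparisons above. The Raji difference exceeded the mean of the other 5 lines by 4.81 in CXCL11, 4.45 in IFIT1, 4.40 in CCNA1, 3.98 in TUBB2A, 3.97 in CCL20, 3.94 in RIGI, 3.86 in TRIM22, 3.68 in CCL5, 3.44 in CXCL9 and 3.43 in CD9. It lay below that mean in SPARCL1 (-3.83), CHI3L2 (-2.30), FGR (-2.22), PRKCB (-2.05), CYP2E1 (-2.05), PHACTR1 (-1.81), GNG7 (-1.78), MAT1A (-1.72), CR2 (-1.64) and PHKA1 (-1.61). Over all genes 192 were higher and 107 lower in Raji than in the mean of the other lines, 58 and 110 than in Namalwa, and 88 and 141 than in Daudi. Among 3150 probe sets without a single gene symbol, which the comparisons leave out, 142 were higher and 171 lower in treated Raji in their own limma fit, and their genes are not named here.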

How the results depend on the processing

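Of 267 recomputed counts 209 stayed within 1.5 times the reported count. Each is a count in 1 direction and cannot turn, but the balance of higher and lower turned in some settings. Against Daudi it went from 88 higher and 141 lower to 113 and 96 after cyclic loess. Against the other 5 lines it went from 192 and 107 to 52 and 103 when only Daudi and Namalwa were used. Over the named genes in each comparison and setting, 2325 entries kept their state, whether called or uncalled. A call was gained in 31 entries and lost in 296. With 1 array left out, genes higher and lower in treated Raji ranged over 329 to 852 and 368 to 1404, those apart from the other 5 lines over 108 to 323 and 37 to 169, from Namalwa over 49 to 94 and 86 to 143, and from Daudi over 47 to 184 and 63 to 186. Interferon-stimulated rises ranged over 25 to 43, members above the other lines over 10 to 42, and mitosis members above the other lines over 8 to 25. The 4 Raji arrays alone gave 6 higher, 0 lower and 1 interferon-stimulated rise, a fit with fewer arrays (limma, 889 and 1562 at an unadjusted p under 0.05). Against Daudi and Namalwa only, 52 genes were higher, 7 of them interferon-stimulated and 1 of the mitosis list. Against SU-DHL4, SU-DHL6 and HT only, 371 were higher and 215 lower, with 19 mitosis members. Without Namalwa 289 were higher, and without SU-DHL4 88 were higher, 68 lower and 3 mitosis members higher. Mitosis members numbered 24 without HT and 19 without Daudi. Array weights gave 144 and 244 against Daudi, and quantile normalization 277 genes 2-fold or more lower on the second treated array. With only the first treated and first untreated Raji array, chosen after seeing the data, 51 genes were lower than in the other lines, 104 higher than in Namalwa and 80 lower than in Daudi, with 23 interferon-stimulated rises, 9 above the other lines and 21 mitosis members. Deviations of same-numbered arrays correlated at 0.02 in Raji, so the numbers give no pairing. A replicate block gave 526 and 1050 genes in Raji, 64 lower than in the other lines, 33 and 41 apart from Namalwa and 27 and 20 from Daudi, 14 interferon-stimulated and 20 mitosis members above the other lines. With the Namalwa numbers crossed (correlation -0.14), a block chosen after seeing the data gave 40 and 56. The cause of these shifts was not tested, beyond the fewer arrays.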
